A study of Homo sapiens with 8 samples.

Results

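The 10 genes described here encode feedback regulators of ERK signalling: the phosphatases DUSP4, DUSP5 and DUSP6, the inhibitors SPRY1, SPRY2, SPRY4, SPRED1 and SPRED2, and the transcription factors ETV4 and ETV5. They were chosen by symbol, and the TPM of each gene's transcripts were summed, giving 10 genes out of 52719 in the table. All 10 were in the data, and 9 of them reached the mean of 1 TPM over all libraries that testing required. DUSP5 did not. The cells were SH-SY5Y, a human neuroblastoma line, as 4 libraries (replicates 21 to 24) differentiated with 1 µM 9-cis retinoic acid over 7 days and 4 libraries (replicates 17 to 20) left undifferentiated. No dose or duration is given for the undifferentiated cells, so time in culture and treatment cannot be told apart. The labels do not say whether replicates were separate cultures, so every p-value below covers library-to-library spread alone, and that spread may be technical in origin. All libraries come from 1 cell line, with no second line to compare.

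ERK is the last kinase of the cascade that runs from growth factor receptors through Ras, Raf and MEK. When ERK is active, cells transcribe genes whose products damp the same cascade, so their transcripts are widely used as a readout of ERK output. DUSP4, DUSP5 and DUSP6 remove phosphate from MAP kinases, Sprouty and Spred proteins act above or at the level of Ras and Raf, and the PEA3 factors ETV4 and ETV5 are ETS-family activators that are themselves ERK targets. In neural crest derivatives and sympathetic neurons, RET, TRK and FGF receptors feed this cascade.

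In differentiated cells, 6 of the 9 tested regulators rose, 1 fell and 2 did not pass the test. The Sprouty gene SPRY1 rose most, to 61.0 ± 7.50 TPM in differentiated cells, against 3.88 ± 0.287 TPM in undifferentiated cells (SD, n = 4 each). SPRY4, ETV4, SPRED1, DUSP6 and SPRED2 rose by much less, and DUSP4 fell. SPRY2 and ETV5 did not pass, and their differentiated and undifferentiated values overlapped. Calls came from two-sided limma tests on log2(TPM+1) over the 17077 genes averaging at least 1 TPM, with a threshold of 0.05 after Benjamini-Hochberg adjustment. Over all these genes 33.9% were called higher and 17.4% lower, so a rise in 6 of 9 members stands beside about 1 in 3 genes and a single fall is near the background. The median log2 fold change was 0.46 over the 9 members and 0.10 over all genes tested. In 7 of the 9 there was no overlap between differentiated and undifferentiated values, which held for 49.6% of all genes tested.

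**Figure D1:**
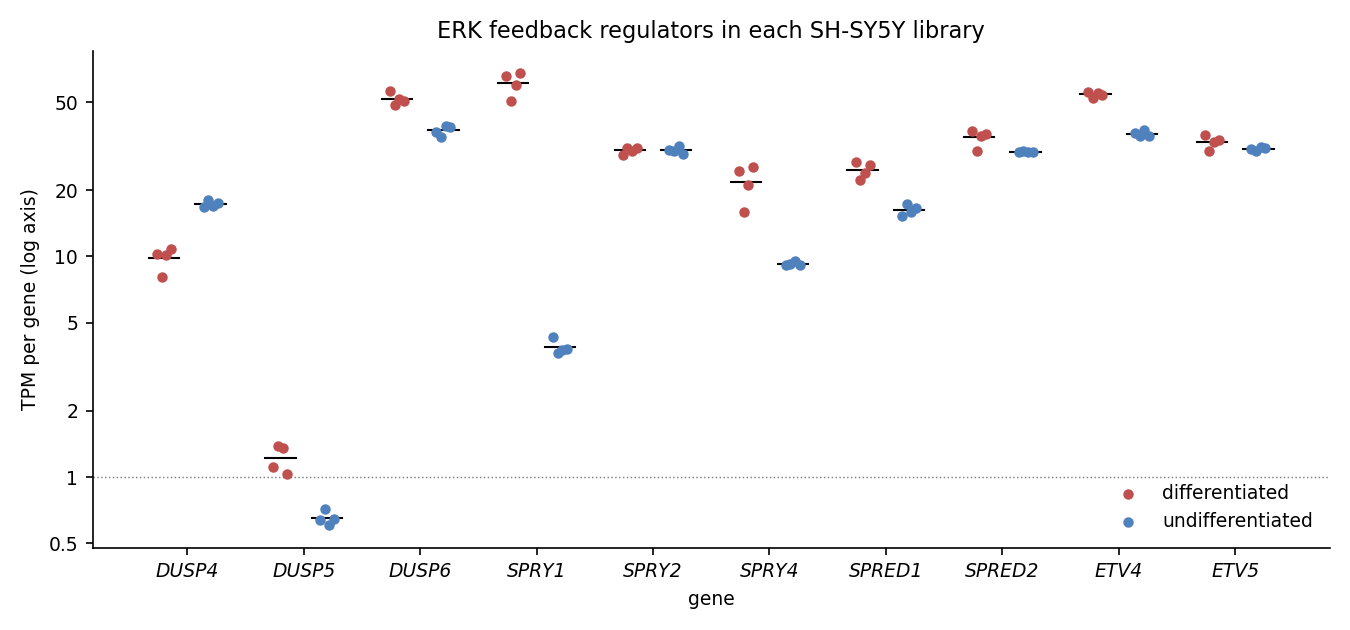
TPM of each regulator (log axis) in every library, with differentiated libraries left of undifferentiated ones; black lines are group means (n = 4 each) and the dotted line marks 1 TPM. SPRY1 spans 50.8 to 67.6 TPM in differentiated cells and 3.63 to 4.29 TPM in undifferentiated cells, while SPRY2 and ETV5 overlap between the groups.

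The windows around annotated starts of 3 Sprouty genes are shown because these genes differed most from each other: SPRY1 and SPRY4 rose and SPRY2 did not. RefSeq on GRCh38.p14 gives such windows, from 250 bases before to 50 bases after a start, for 6 of the 10 members: SPRY1, SPRY2, SPRY4, SPRED1, SPRED2 and DUSP6. Windows of DUSP4, DUSP5, ETV4 and ETV5 were not analysed here. Sequences run 5′ to 3′ on the gene's strand, and capitals mark motif matches. The first SPRY1 window, chr4:123396545-123396844 on the plus strand, holds the start of SPRY1-201, the main transcript here.
SPRY1 first window: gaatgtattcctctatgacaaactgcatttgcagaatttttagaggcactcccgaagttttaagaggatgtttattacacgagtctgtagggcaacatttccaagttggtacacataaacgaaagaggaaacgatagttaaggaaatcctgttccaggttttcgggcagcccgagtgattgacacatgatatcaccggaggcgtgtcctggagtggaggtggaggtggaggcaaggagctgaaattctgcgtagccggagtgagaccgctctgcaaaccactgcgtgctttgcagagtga
SPRY1 second window, chr4:123398136-123398435, plus strand: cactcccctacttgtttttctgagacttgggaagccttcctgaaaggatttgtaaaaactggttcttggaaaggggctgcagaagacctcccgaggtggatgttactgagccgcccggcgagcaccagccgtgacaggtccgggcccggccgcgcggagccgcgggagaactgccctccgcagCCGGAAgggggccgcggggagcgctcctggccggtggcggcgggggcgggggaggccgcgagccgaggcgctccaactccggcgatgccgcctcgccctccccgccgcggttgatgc
SPRY4 window, chr5:142324198-142324497, minus strand: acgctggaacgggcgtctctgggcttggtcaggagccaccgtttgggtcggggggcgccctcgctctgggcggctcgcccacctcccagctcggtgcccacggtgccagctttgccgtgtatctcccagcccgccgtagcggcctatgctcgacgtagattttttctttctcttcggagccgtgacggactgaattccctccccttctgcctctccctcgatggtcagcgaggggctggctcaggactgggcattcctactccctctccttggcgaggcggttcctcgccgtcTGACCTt
SPRY2 outermost window, chr13:80341077-80341376, minus strand: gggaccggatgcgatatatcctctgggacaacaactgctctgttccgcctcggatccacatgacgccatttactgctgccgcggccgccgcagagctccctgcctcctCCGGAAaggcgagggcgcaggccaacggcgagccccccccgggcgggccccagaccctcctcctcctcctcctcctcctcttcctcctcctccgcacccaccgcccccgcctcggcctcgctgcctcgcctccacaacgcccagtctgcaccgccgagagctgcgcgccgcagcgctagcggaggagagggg

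The motifs searched on both strands were the ETS core CCGGAA, the CIC octamers TGAATGAA and TGAATGGA, the retinoic acid half-site AGGTCA, its direct repeat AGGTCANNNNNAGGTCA, the RARB-type repeat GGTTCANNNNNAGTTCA, the AP-1 site TGANTCA and the cAMP response element TGACGTCA. Each direct repeat of the first kind also holds half-sites. The ETS core lies in the second SPRY1 window and in the outermost SPRY2 window, and in 17.2% of all 35116 windows. The half-site lies, on the opposite strand, at the end of the SPRY4 window and in 13.8% of all windows. A SPRED2 window holds AP-1 letters, as do 7.71% of windows. None of the other motifs was found in the 10 member windows, and they occur in 0.0057% (the AGGTCA repeat) to 1.85% (the cAMP response element) of all windows. Neither window with an ETS core, the second of SPRY1 and the outermost of SPRY2, has an annotated start of a transcript measured here within 100 bases of its RefSeq start. The start of SPRY1-204, at 123398185, does lie inside the second SPRY1 window. SPRY1-204 held 3.83% of the gene in differentiated and 4.43% in undifferentiated cells. The main SPRY2 transcript, SPRY2-202, starts at 80340951, downstream of the outermost SPRY2 window. The SPRY4 window holds the start of SPRY4-203, at 142324417, and not that of the main transcript SPRY4-201, at 142325001. SPRY4-203 held 4.63% of the gene in differentiated and 8.94% in undifferentiated cells. SPRY4-205 starts at 142324182, within 100 bases of the RefSeq start but just outside the window. It held 7.09% of the gene in differentiated and 5.77% in undifferentiated cells. A SPRY1 and a SPRY2 window thus both hold an ETS core, and the window at the main SPRY1 start holds none of the motifs searched. These are letter matches in short windows and say nothing about whether a factor binds.

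Among the ERK phosphatases, DUSP4 and DUSP6 moved in opposite directions. Gene positions are those of GENCODE 29 on GRCh38, whereas the authors' build was GRCh37 per the submitters' processing notes, and identifiers are Ensembl's. DUSP6 (ENSG00000139318) lies on chromosome 12 from 89347232 to 89353271, DUSP4 (ENSG00000120875) on chromosome 8 from 29333064 to 29350668 and DUSP5 (ENSG00000138166) on chromosome 10 from 110497838 to 110511544. DUSP6, a cytoplasmic phosphatase with high preference for ERK, was at 56.0, 48.6, 51.6 and 50.4 TPM in differentiated replicates 21 to 24, against 36.6, 34.6, 39.2 and 38.6 TPM in undifferentiated replicates 17 to 20. Every differentiated library lay above every undifferentiated one. The log2 fold change was 0.46 ± 0.06 (SE; limma adjusted p = 0.000276), a ratio of mean TPM of 1.39. DUSP4, a nuclear phosphatase that acts on ERK and other MAP kinases, was at 10.3, 8.07, 10.1 and 10.8 TPM in differentiated replicates 21 to 24, against 16.7, 18.1, 17.0 and 17.5 TPM in undifferentiated replicates 17 to 20. The groups did not overlap here either, with differentiated cells lower. The log2 fold change was -0.77 ± 0.09 (SE; limma adjusted p = 0.000125), and mean TPM in differentiated cells was 0.566 of that in undifferentiated cells.

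DUSP5, a nuclear phosphatase of ERK, was the least abundant member. It was at 1.11, 1.38, 1.36 and 1.03 TPM in differentiated replicates 21 to 24, against 0.637, 0.716, 0.605 and 0.648 TPM in undifferentiated replicates 17 to 20. All differentiated values were above all undifferentiated ones, but the mean over the 8 libraries stayed under 1 TPM, so the gene was not tested with the others. When genes of any level were tested, its log2 fold change of 0.42 passed (limma adjusted p = 0.00685), and within lane 8 it did not (limma adjusted p = 0.0756). Both annotated DUSP5 pseudogenes, DUSP5P1 and DUSP5P2, were listed at 0 in every library. As a family, the 3 phosphatases summed to 62.7 ± 3.79 TPM in differentiated and 55.2 ± 1.76 TPM in undifferentiated cells (SD, n = 4 each), of which DUSP4 made up 15.6% ± 1.44 in differentiated and 31.4% ± 1.72 in undifferentiated cells.

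The Sprouty genes, whose proteins are induced by growth factors and hold back Ras and Raf activation, showed the widest range of responses in the set. SPRY1 (ENSG00000164056) lies on chromosome 4 from 123396795 to 123403760, SPRY4 (ENSG00000187678) on chromosome 5 from 142310427 to 142326455 and SPRY2 (ENSG00000136158) on chromosome 13 from 80335976 to 80340951. SPRY1 was at 65.5, 50.8, 59.9 and 67.6 TPM in differentiated replicates 21 to 24, against 4.29, 3.63, 3.78 and 3.82 TPM in undifferentiated replicates 17 to 20. The lowest differentiated value is far above the highest undifferentiated one. Its log2 fold change was 3.66 ± 0.10 (SE; limma adjusted p = 3.64e-08), and the ratio of mean TPM was 15.7. SPRY4 was at 24.4, 15.9, 21.0 and 25.4 TPM in differentiated replicates 21 to 24, against 9.14, 9.26, 9.51 and 9.19 TPM in undifferentiated replicates 17 to 20. The groups did not overlap, and differentiated replicate 22 was the lowest of its group. The log2 fold change of SPRY4 was 1.12 ± 0.13 (SE; limma adjusted p = 0.000162), with a ratio of mean TPM of 2.34.

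SPRY2, a further growth factor-induced inhibitor of the family, did not pass the test. It was at 28.7, 31.1, 30.0 and 30.9 TPM in differentiated replicates 21 to 24, against 30.4, 29.9, 31.8 and 29.1 TPM in undifferentiated replicates 17 to 20. The groups lay over each other, with a log2 fold change of -0.004 ± 0.05 (SE; limma adjusted p = 0.953). The sum of the 3 Sprouty genes was 113 ± 11.3 TPM in differentiated and 43.4 ± 1.31 TPM in undifferentiated cells (SD, n = 4 each). SPRY1 made up 53.9% ± 1.44 of that sum in differentiated and 8.93% ± 0.656 in undifferentiated cells, and SPRY2 made up 27.0% ± 3.42 in differentiated and 69.7% ± 0.645 in undifferentiated cells. The share of SPRY4 was 19.1% ± 2.0 in differentiated and 21.4% ± 0.452 in undifferentiated cells. So the leading Sprouty transcript was SPRY1 in each differentiated library and SPRY2 in each undifferentiated one.

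**Figure D2:**
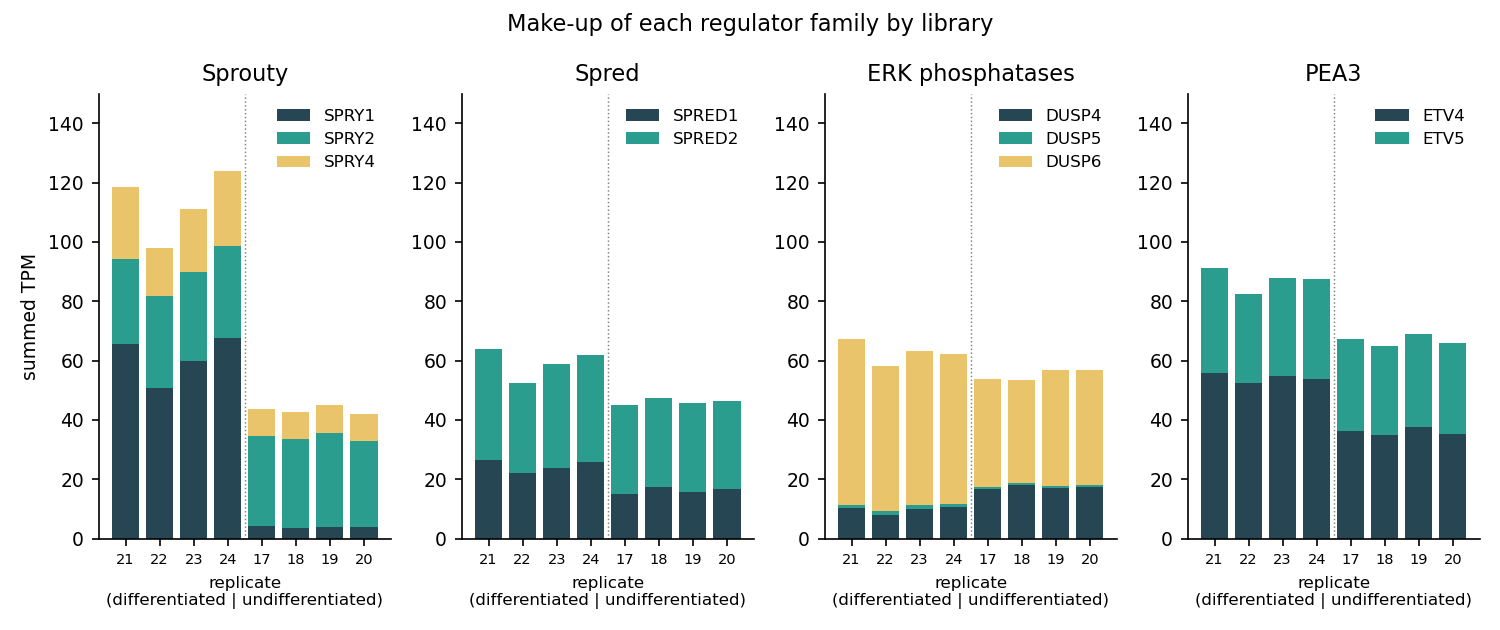
Summed TPM of each family by library, stacked by gene, with differentiated replicates 21 to 24 left of the dotted line and undifferentiated replicates 17 to 20 right of it. SPRY1 makes up 51.9% to 55.2% of the Sprouty sum in differentiated libraries and 8.38% to 9.81% in undifferentiated ones.

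Spred proteins bind neurofibromin, the product of NF1, and bring this Ras inhibitor to the membrane. SPRED1 (ENSG00000166068) lies on chromosome 15 from 38252326 to 38357249 and SPRED2 (ENSG00000198369) on chromosome 2 from 65310851 to 65432637. SPRED1, mutated in Legius syndrome, was at 26.7, 22.2, 23.8 and 25.9 TPM in differentiated replicates 21 to 24, against 15.2, 17.3, 15.8 and 16.6 TPM in undifferentiated replicates 17 to 20. The groups did not overlap, and the log2 fold change was 0.57 ± 0.07 (SE; limma adjusted p = 0.000221). SPRED2 was at 37.2, 30.2, 35.1 and 36.0 TPM in differentiated replicates 21 to 24, against 29.7, 29.97, 29.8 and 29.7 TPM in undifferentiated replicates 17 to 20. Differentiated replicate 22 lay just above the undifferentiated libraries and the other differentiated libraries stood clear of them. The log2 fold change of SPRED2 was 0.21 ± 0.07 (SE; limma adjusted p = 0.0302). This call held when replicate 22 was left out (limma adjusted p = 0.000415) and was lost without any other single library (limma adjusted p = 0.0638 to 0.0767), within lane 8 and under both other scalings. SPRED1 made up 41.6% ± 0.844 of the Spred sum in differentiated and 35.3% ± 1.22 in undifferentiated cells (SD, n = 4 each).

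Of the PEA3 factors, ETV4 rose and ETV5 did not pass the test. ETV4 (ENSG00000175832) lies on chromosome 17 from 43527844 to 43579620 and ETV5 (ENSG00000244405) on chromosome 3 from 186046308 to 186110318. ETV4 was at 55.8, 52.5, 54.8 and 53.8 TPM in differentiated replicates 21 to 24, against 36.4, 34.99, 37.6 and 35.1 TPM in undifferentiated replicates 17 to 20. The groups were well apart, with a log2 fold change of 0.58 ± 0.04 (SE; limma adjusted p = 9.08e-06) and the smallest relative spread of any member in differentiated cells, a coefficient of variation of 2.62%. ETV5 was at 35.4, 29.9, 33.0 and 33.6 TPM in differentiated replicates 21 to 24, against 30.7, 30.0, 31.4 and 30.9 TPM in undifferentiated replicates 17 to 20. Its groups overlapped through differentiated replicate 22, and the log2 fold change was 0.10 ± 0.06 (SE; limma adjusted p = 0.188). Without replicate 22 it passed (log2 fold change 0.14, limma adjusted p = 0.0169). ETV1, the remaining PEA3 factor and not one of the 10, was at 50.3 ± 6.51 TPM in differentiated and 35.0 ± 0.954 TPM in undifferentiated cells (SD, n = 4 each) and rose by 0.50 on the log2 scale (limma adjusted p = 0.00151).

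TPM is corrected for transcript length, so levels can be ordered between genes. In differentiated cells SPRY1, ETV4 and DUSP6 led, with ranges that overlapped from each to the next, and all 3 lay above SPRED2, ETV5 and SPRY2, whose ranges also overlapped. SPRED1 and SPRY4 followed, overlapping each other, then DUSP4 and DUSP5, each clear of its neighbours. In undifferentiated cells DUSP6 and ETV4 led and overlapped, above an overlapping group of ETV5, SPRY2 and SPRED2. DUSP4 and SPRED1 overlapped next, and SPRY4, SPRY1 and DUSP5 followed, each clear of the next. SPRY1 was thus the ninth of the 10 by mean level in undifferentiated cells and the first in differentiated cells.

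Lane and scaling moved the smaller changes. Lane 7 carried undifferentiated replicates 17 and 18, and lane 8 the remaining 6 libraries. Within lane 8 the counts were 5 higher and 1 lower of 10 tested, beside 26.0% higher and 11.0% lower over all genes. The member that dropped out was SPRED2. Median-of-ratios scaling shifted the median of all genes to -0.02, and under it 27.0% of genes were called higher and 26.2% lower. Of the 9 members 5 were then higher and 1 lower, with SPRED2 again lost (log2 fold change 0.08, limma adjusted p = 0.129). SPRY1 (3.54), SPRY4 (1.00), ETV4 (0.45), SPRED1 (0.45) and DUSP6 (0.33) stayed higher on the log2 scale and DUSP4 (-0.89) lower. Quantile normalization also gave 5 members higher and 1 lower, beside 24.4% and 29.9% of all genes. ETV5 changed sign under both scalings, at -0.03 for median-of-ratios and -0.05 for quantile, without passing the test. An exact two-sided permutation test over the 8 libraries cannot go below p = 0.0286 with 4 against 4, which 7 members reached, and after adjustment over all genes it called 0 of them (adjusted p = 0.0576).

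**Figure D3:**
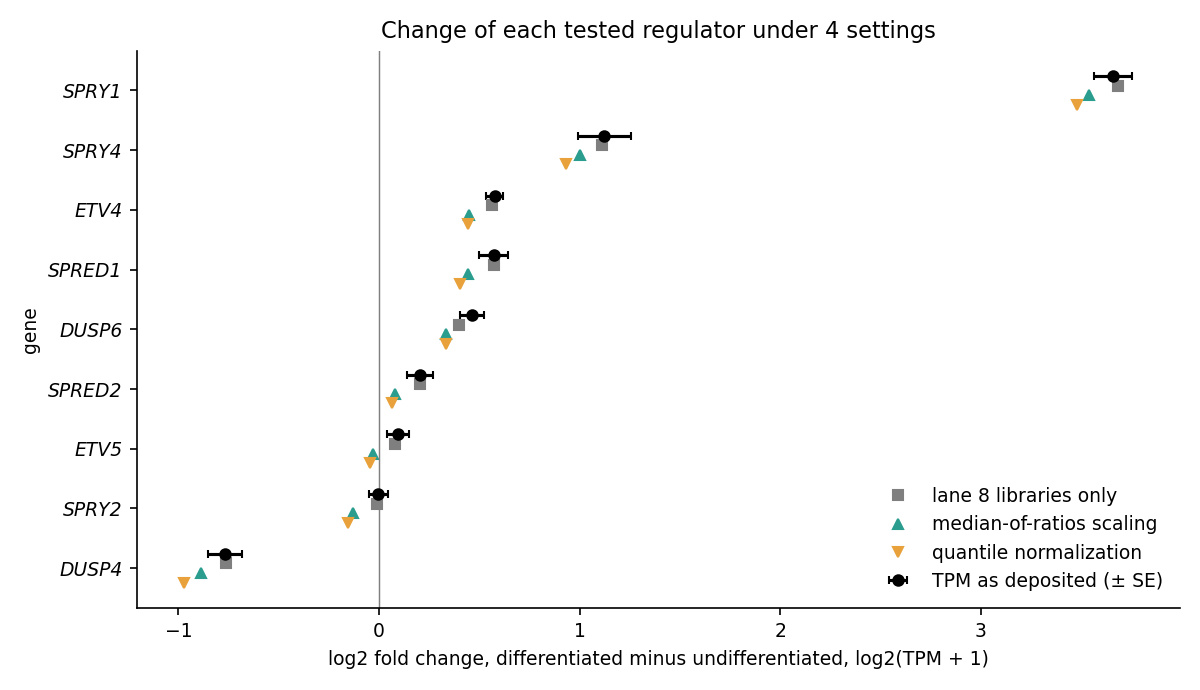
Log2 fold change, differentiated minus undifferentiated, of the 9 tested regulators with TPM as deposited (bars are the limma SE), within lane 8, and under 2 other scalings. SPRY1 stays between 3.48 and 3.68 and DUSP4 between -0.97 and -0.76 in the plotted settings, while SPRY2 and ETV5 lie near 0 and change sign or size with the scaling.

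Differentiated replicate 22 was the lowest library of its group for 8 of the 10 members and the highest for DUSP5 and SPRY2. In that library 11.3% of the members' TPM fell on transcripts shorter than 1000 bases, against 17.6% to 21.1% in the other differentiated libraries and 12.0% to 14.2% in undifferentiated libraries. Over all matched transcripts the share in replicate 22 was 51.5%, within the 51.4% to 52.6% of the differentiated libraries. In undifferentiated libraries that share was higher, at 55.6% to 56.0%. Without replicate 22, 7 members were higher and 1 lower, ETV5 being the addition, while calls over all genes were 38.6% higher and 18.1% lower. When transcripts of 1000 bases or longer alone were summed, a setting chosen after seeing these values, 6 members were higher and 1 lower, beside 46.1% higher and 21.8% lower over all genes in that setting. The log2 fold change of SPRY4 there was 1.17, against 1.12 with all transcripts.

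The rise of SPRY1 was spread over its transcripts. The main one, SPRY1-201, was at 32.5 ± 1.77 TPM in differentiated and 2.04 ± 0.273 TPM in undifferentiated cells (SD, n = 4 each), which was 54.1% of the gene in differentiated and 52.5% in undifferentiated cells. Transcripts that start within the first window shown above (123396795 to 123396811 on chromosome 4, GRCh38) summed to 47.7 ± 4.27 TPM in differentiated and 2.98 ± 0.617 TPM in undifferentiated cells. Those that start further in (123398185 to 123399968) summed to 13.2 ± 4.54 TPM in differentiated and 0.904 ± 0.389 TPM in undifferentiated cells. The first group held 78.7% ± 5.41 of the gene in differentiated and 76.3% ± 10.8 in undifferentiated cells, so both groups of starts were higher together. SPRY1 was under the 5 TPM per group needed for a test of shares.

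For the other members with several transcripts the make-up changed little relative to the spread between libraries. Of 12 member transcripts tested for their share of the gene, limma called 0 at an adjusted p under 0.05 and a difference of 10 percentage points, and 0 had an unadjusted p under 0.05. Over all transcripts tested, 2.39% were called. The largest difference was in SPRY4-201, at 74.1% ± 11.0 of the gene in differentiated and 65.6% ± 3.06 in undifferentiated cells (SD, n = 4 each; limma adjusted p = 0.361). DUSP6 TPM were divided among DUSP6-201, DUSP6-202 and DUSP6-204, with 32.7%, 31.6% and 27.3% in differentiated and 33.0%, 28.2% and 31.7% in undifferentiated cells. In SPRY2 the transcript SPRY2-202 held 85.9% ± 5.17 in differentiated and 83.2% ± 2.32 in undifferentiated cells. In ETV4 the transcripts ETV4-202 and ETV4-203 shared most of the level, at 14.2 ± 2.37 and 18.1 ± 3.75 TPM in differentiated, against 10.9 ± 1.84 and 10.7 ± 0.970 TPM in undifferentiated cells. A single transcript, of number 201, held nearly all of DUSP4, DUSP5 and SPRED1 in both groups.

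**Figure D4:**
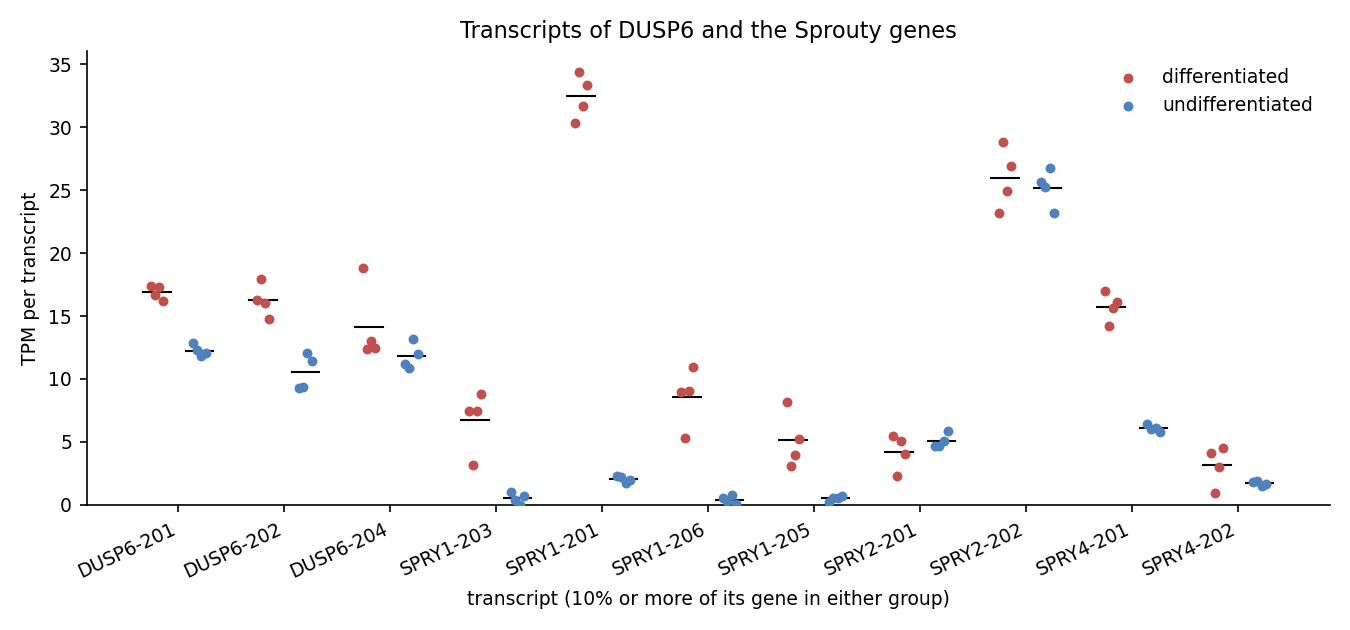
TPM of each transcript that holds 10% or more of DUSP6, SPRY1, SPRY2 or SPRY4 in either group, by library, with differentiated left of undifferentiated and black lines at the means (n = 4 each). SPRY1-201 lies between 30.4 and 34.4 TPM in differentiated libraries and between 1.70 and 2.32 TPM in undifferentiated ones.

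Some members share their locus with other genes. SPRY4-AS1, an antisense RNA that overlaps SPRY4, was at 15.5, 17.1, 9.39 and 14.8 TPM in differentiated replicates 21 to 24, against 6.67, 6.25, 9.33 and 8.84 TPM in undifferentiated replicates 17 to 20. It was called higher with all libraries (log2 fold change 0.78 ± 0.19 SE, limma adjusted p = 0.0098) but not within lane 8 (0.56, limma adjusted p = 0.107). The libraries were made with a stranded kit, but whether the counting used strand is not given in the sources used here, so SPRY4 and SPRY4-AS1 may have shared reads. DHX8, a helicase gene that overlaps ETV4 on the other strand, was at 50.02 to 53.2 TPM in differentiated and 47.7 to 52.2 TPM in undifferentiated cells. ETV5-AS1 stayed at or under 0.132 TPM and DGKG, which overlaps ETV5, at or under 0.441 TPM in all libraries.

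The genes whose values over the 8 libraries ran closest to SPRY1 were PTPRE, THBS2 and KCNIP4, with a root mean square difference of 0.07 to 0.09 between profiles of log2(TPM+1) centred on each gene's mean. Closest to DUSP4 were TACC2, NAA15 and LRPPRC, with 0.04 to 0.05. With 8 libraries in 2 groups, closeness of this kind mostly reflects an alike difference between the groups.

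Other genes of the pathway were taken from lists, and their changes are given as log2 fold changes; those said to rise or fall had a limma adjusted p under 0.05. The percentages beside the list counts are to be read against the 33.9% of all genes called higher and the 17.4% called lower, and the difference from them was not tested. Among other MAP kinase phosphatases, 3 of 6 tested rose (50%) and 1 fell (16.7%), and the list's median was 0.28. DUSP10 (1.43) and DUSP16 (1.20), which act mainly on p38 and JNK, rose, as did DUSP8 (0.41, which lost its call in some alternatives). DUSP1, an immediate early phosphatase, fell by 0.52. Among other family members and receptor-level inhibitors, 4 of 15 rose (26.7%) and 2 fell (13.3%), with a median of 0.07. SPRED3, the remaining Spred gene, was at 8.88 ± 1.85 TPM in differentiated and 2.80 ± 0.763 TPM in undifferentiated cells (SD, n = 4 each). FGFRL1, a decoy FGF receptor, and ERRFI1, an EGF receptor inhibitor, rose by 0.80 and 0.56. IL17RD, also known as SEF, an inhibitor of FGF signalling, fell by 0.64. CBLB fell by 0.29 and lost its call within lane 8 (limma adjusted p = 0.122). SPRY3 was under the testing minimum, at 1.21 ± 0.279 TPM in differentiated and 0.591 ± 0.0266 TPM in undifferentiated cells. NF1, the partner of Spred proteins, did not pass (0.17, limma adjusted p = 0.314). The median of this list changed sign with the scaling, to -0.05 for median-of-ratios and -0.12 for quantile normalization. With quantile normalization 4 of its genes were higher and 6 lower, beside 24.4% and 29.9% of all genes.

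Of 28 kinases, adaptors and other parts of the cascade tested, 12 rose (42.9%) and 2 fell (7.14%), with a median of 0.18. Median-of-ratios scaling gave 9 higher and 6 lower of 29 tested, beside 27.0% and 26.2% of all genes. The largest rise was in the Ras-related GTPase RRAS, at 15.3 ± 3.35 TPM in differentiated and 1.71 ± 0.162 TPM in undifferentiated cells (SD, n = 4 each). RASGRP2, a Rap and Ras exchange factor, and the ERK-activated kinases RPS6KA2 and RPS6KA3 rose by 0.87, 0.80 and 0.77. MAPK3, which encodes ERK1, rose by 0.28 (limma adjusted p = 0.00288, up to 0.0653 over the alternatives).

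Among other known ERK target genes, 12 of 19 tested rose (63.2%) and 4 fell (21.1%), with a median of 0.95. Median-of-ratios scaling gave 11 higher and 4 lower, beside 27.0% and 26.2% of all genes. Lane 8 alone gave 11 higher and 2 lower, beside 26.0% and 11.0%. The neuropeptide precursor VGF was at 218 ± 31.9 TPM in differentiated and 41.7 ± 4.68 TPM in undifferentiated cells (SD, n = 4 each). The immediate early gene FOS was at 5.75 ± 0.814 TPM in differentiated and 0.549 ± 0.178 TPM in undifferentiated cells. SPHK1, a sphingosine kinase, rose by 1.82, and MYC fell by 2.99. FOS and SPHK1 averaged 0.549 and 0.675 TPM in undifferentiated cells, so they reached the testing minimum through their differentiated values. CCND1, TRIB1 and NR4A1 also fell, by 0.26, 0.37 and 0.40, and of the genes that fell, CCND1 and TRIB1 lost their call within lane 8 (limma adjusted p = 0.166 and 0.0696) while MYC and NR4A1 kept theirs. These genes were listed as ERK targets from other cells, and many have other regulators.

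Of CIC, the repressor of PEA3 genes that ERK inactivates, and other regulators of these genes, 7 of 16 rose (43.8%) and 4 fell (25%), with a median of 0.19. CIC rose by 0.32 (limma adjusted p = 0.00354) and its partner ATXN1 rose by 1.56. The ETS factor ELK3 rose by 1.17. ATXN1L rose by 0.54 and DET1, part of the COP1 ubiquitin ligase that degrades PEA3 proteins, fell by 1.12, and neither passed within lane 8. COP1 itself rose by 0.29, and DDB1, SIAH2 and CUL4A of the same list fell by 0.36, 0.22 and 0.20. Of COP1 and these genes, DDB1 alone passed within lane 8 (limma adjusted p = 0.0282). With quantile normalization 4 of the 16 were higher and 5 lower, beside 24.4% and 29.9% of all genes. Of 18 growth factor receptors tested, 7 rose (38.9%) and 4 fell (22.2%), with a median of 0.31. NTRK2 (5.11), RET (3.79) and LTK (3.05) were among the rises. NTRK2 averaged 0.260 TPM in undifferentiated cells, so it reached the testing minimum through its differentiated values. KIT, FGFR4, ALK and FGFR2 fell by 1.10, 0.79, 0.43 and 0.36. FGFR2 and ALK had no call within lane 8 (limma adjusted p = 0.132 and 0.184). The FGF receptor genes did not move together: FGFR1 did not pass (0.35) and FGFR3 was under the testing minimum. Without replicate 22, FGFR1 and FGFR3 were both called higher (0.48 and 0.79). Without replicate 22, where 38.6% of all genes were higher and 18.1% lower, 12 of 19 receptors rose and 4 fell. Of 13 FGF, EGF and related ligands tested, 8 rose (61.5%) and 1 fell (7.69%), with a median of 0.28. The largest rises were in FGF1 (2.09), HBEGF (2.07), NRG1 (1.45) and FGF5 (1.14). The other 12 ligands of the list were under the testing minimum. FGF1 and FGF5 averaged 0.604 and 0.290 TPM in undifferentiated cells, so they reached that minimum through their differentiated values. Quantile normalization gave 6 higher and 1 lower with a median of 0.03, beside 24.4% and 29.9% of all genes. Lane 8 alone gave 6 higher and 1 lower, beside 26.0% and 11.0%.

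**Figure D5:**
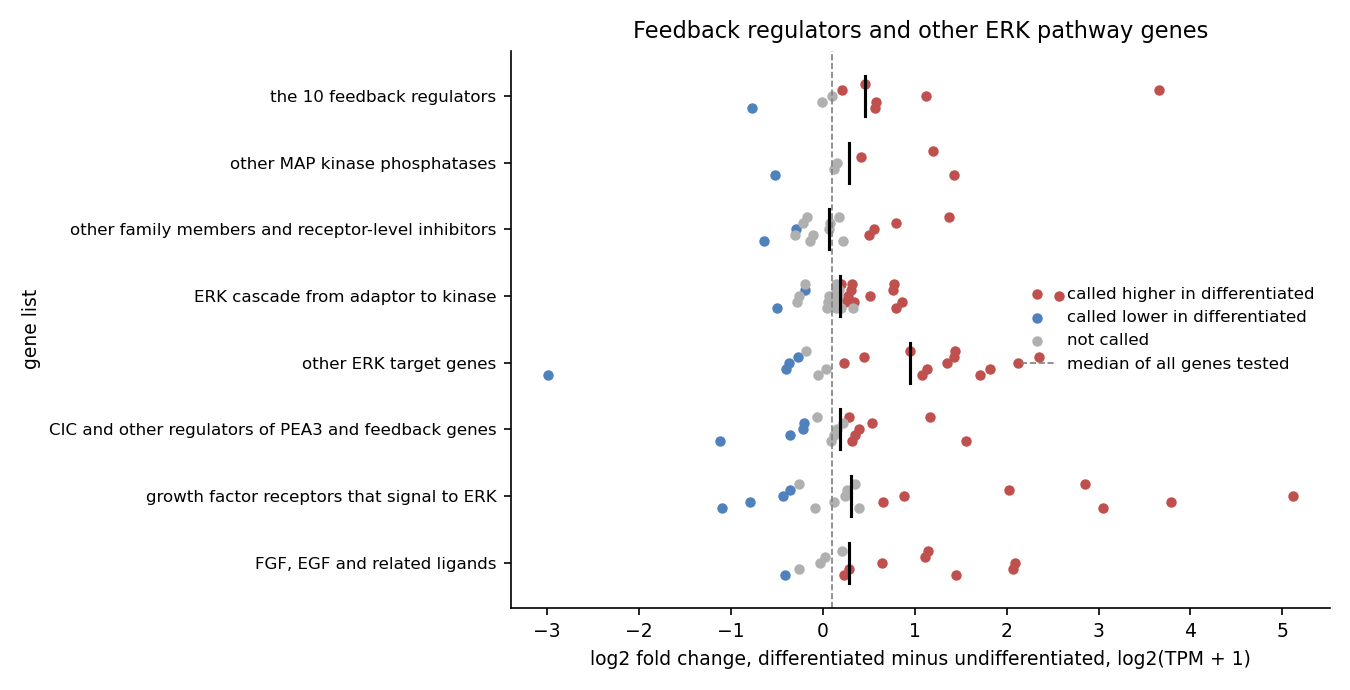
Log2 fold change, differentiated minus undifferentiated, of the tested regulators and of each list of other ERK pathway genes; each point is a gene, coloured by its limma call with TPM as deposited, black bars are list medians and the dashed line is the median of all genes tested. The medians are 0.46 for the regulators and 0.95 for other ERK target genes, against 0.10 for all genes.

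The cells carried the markers of their type: 8 of 9 noradrenergic neuroblastoma markers reached 1 TPM, and their summed level was 1120 to 1325 TPM in differentiated and 1529 to 1607 TPM in undifferentiated libraries, with TH, the enzyme that defines catecholamine synthesis, near 0. Of 8 fibroblast markers, 7 reached 1 TPM and 4 rose, and their sum was 639 to 821 TPM in differentiated and 210 to 220 TPM in undifferentiated libraries; COL3A1 alone averaged 472 TPM in differentiated and 43.6 TPM in undifferentiated libraries. Schwann cell markers summed to 15.0 to 18.6 TPM in differentiated and 6.50 to 8.62 TPM in undifferentiated libraries, with SOX10 at 0 in all. Epithelial markers summed to 15.2 to 19.9 TPM in differentiated and 3.98 to 4.83 TPM in undifferentiated libraries. KRT18 averaged 12.1 TPM in differentiated and 0.262 TPM in undifferentiated libraries and rose, as did KRT8. The defining adhesion gene CDH1 was at or under 0.159 TPM in differentiated libraries, against 0.284 TPM or less in undifferentiated libraries. The 5 endothelial markers measured summed to 22.4 to 29.4 TPM in differentiated and 10.5 to 12.8 TPM in undifferentiated libraries, nearly all of it EGFL7. Blood markers summed to at most 1.33 TPM, with CD3E and HBB at 0. The part of these differences in the changes of the feedback regulators was not tested, and in bulk RNA fewer cells of a type and less RNA per cell cannot be told apart.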

How the data were processed

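mRNA from 8 SH-SY5Y libraries was sequenced, 4 differentiated and 4 undifferentiated, grouped by the sample titles. The authors deposited TPM per Ensembl transcript, each library summing to 1000000, so the depth is unknown and counting error cannot be given. Per the submitters' processing notes, FastQC 0.11.2, Salmon and genome build GRCh37 were used; the sources used here name neither an annotation release nor a strand setting. Transcripts were matched to GENCODE 29 (GRCh38) by identifier: 180930 of 194993 (92.8%) matched, holding 93.2% to 95.0% of a library's TPM. TPM were summed per gene.

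Genes averaging at least 1 TPM entered limma 3.58.1 (R 4.3.3, intensity trend) on log2(TPM+1), differentiated minus undifferentiated, with Benjamini-Hochberg adjustment over all 17077 genes. This scale understates changes of low genes. Since the mean ran over both groups, genes under 1 TPM in undifferentiated cells could still be tested. FOS, SPHK1, NTRK2, FGF1, FGF5, KRT8 and KRT18 were such genes. Transcript shares were tested after an arcsine square root, in genes with 5 TPM or more per group and for mean shares of 10% to 90%. The limma and permutation steps were tested on simulated gene values. The alternatives were other pseudocounts, filters, scalings, transcript sets, tests, lane 8 alone and each library left out.

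The members and gene lists were chosen with earlier results of these data known. All members were named, as were up to 4 called genes with the largest change per list, a fixed set (ETV1, SPRY3, SPRED3, DUSP1, CIC, NF1, MAPK3), the 3 genes with the smallest root mean square difference from the largest riser and the largest faller, and member transcripts with 10% or more of a gene. Some genes that this rule covers are not reported here. Other list genes named in the text were chosen after their values were seen. Joins and figures used pandas 2.3.3, numpy 2.4.6 and matplotlib 3.10.9 under Python 3.11.15.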

Additional observations from a re-analysis of the deposited data

Results flagged for a closer look

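In 132 sets of 4 libraries (members, their main transcripts and the named genes, each group apart), 2 held a library far from the other 3, with a gap to the nearest library, relative to the range, above Dixon's critical value. Chance alone gives about 1 such set in 20. DUSP6-204 was at 18.9 TPM in differentiated replicate 21, against 12.4 to 13.0 TPM in the other differentiated libraries, with a gap of 0.902 of the range. ETV4-208 was at 7.11 TPM in differentiated replicate 22, against 8.65 to 8.90 TPM in the other differentiated libraries, with a gap of 0.86 of the range. Neither gene's summed TPM showed such a gap.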

How the results depend on the processing

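SPRY1, SPRY4, ETV4, SPRED1, DUSP6 and DUSP4 kept their direction and their call in all 18 limma alternatives. Their adjusted p reached at most 0.00765 (DUSP6, lane 8). SPRED2 was called in 8 of 18, with log2 fold changes of 0.07 to 0.27, and ETV5 in 1 of 18, without replicate 22. SPRY2 was called in none, at -0.15 to 0.02. With 1 library left out, 5 to 7 members were called higher, 1 lower, and 7784 to 9724 genes in all. The exact permutation test called 0 genes, with 0 members higher and 0 lower, since its smallest adjusted p is 0.0576; 8475 genes and 7 members had an unadjusted p under 0.05. No member transcript was called for its share in any of 11 alternatives, while calls over all transcripts ranged from 21 in lane 8 and 145 to 685 with 1 library left out to 548 with all libraries. No paired analysis was possible because the groups share no replicate numbers. Depth is unknown, so the error of low values such as those of DUSP5 cannot be stated.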
